A study of Mus musculus with 10 samples.

Results

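M4 is a mesenchymal cell line grown from 1 mammary tumour that relapsed in a mouse, and E is the epithelial tumour line whose cells had been injected to start that tumour. The comparison rests on 4 of the 10 arrays of the study, the 2 labelled M4 and the 2 labelled E, and covers 14840 genes. E came from spontaneous mammary adenocarcinoma of female FVB/N-TgN(MMTVneu)202Mul mice, in which the mouse mammary tumour virus promoter drives the neu oncogene, so that every line of the study descends from neu-transgenic tumour cells. M4 was established from a relapsed tumour of a female FVB/N mouse, as were the sister lines M1, M2 and M3, each on 2 arrays. Cultures were kept in RPMI with 10% fetal bovine serum until 80% confluent, and biotin-labelled cRNA made from their total RNA was hybridized. M4 and E are each 1 line, and the labels do not say whether the 2 arrays of a line are separate cultures. Every p-value thus covers only how far 2 arrays of the same line lie apart, a spread that may be technical.

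Epithelial tumour cells are joined by tight junctions, adherens junctions built on E-cadherin, and desmosomes anchored to keratin filaments. In epithelial-mesenchymal transition (EMT) these are taken down and replaced by a vimentin cytoskeleton and a secreted collagen matrix, under transcription factors of the Snail, Zeb and Twist families. Snail and Zeb proteins are known to bind the E-box CAGGTG in promoters of junction genes. Tumours started by neu can relapse in mice as spindle-shaped, mesenchymal growths with low neu.

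The signals are linear intensities as deposited. Changes are differences of log2(signal + 32), M4 minus E, each with the standard error (SE) from limma's fit to all 10 arrays. A gene was called, written as "rose" or "fell", when its Benjamini-Hochberg adjusted p over 14840 genes was under 0.05 and its change at least 2-fold. The median signal of an array lay between 22.7 and 35.7, so signals of a few units stand for no measurable level, and the size of a change from or to such a signal depends on the 32 added.

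M4 differed from E in 3970 genes (26.8%), of which 987 (6.65%) rose and 2983 (20.1%) fell. The balance of these directions depended on the scaling. The M4 arrays were dimmer than the E arrays, with trimmed mean signals of 181 and 190.2 against 299 and 264, hybridization controls at a geometric mean of 1067 and 1093 against 1648 and 1500, and 29.9% and 30.4% of probe sets above 100 against 36.3% and 34.4%. The median gene changed by -0.35 as deposited and by 0.04 after quantile normalization. Quantile normalization called 1541 genes higher and 1410 lower, and these included all 987 that rose and 1410 of those that fell, with 0 in the opposite direction. Counts of fallen genes are therefore given below with those after quantile normalization. Each list count is to be read beside the shares of all genes, 6.65% risen and 20.1% fallen as deposited. The ratio of 3' to 5' signal was alike in both lines, at 1.22 to 1.25 for Actb and 0.82 to 0.83 for Gapdh. Signals of probe sets correlated at 0.992 to 0.993 within a line and at 0.879 to 0.882 between E and M4.

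**Figure D1:**
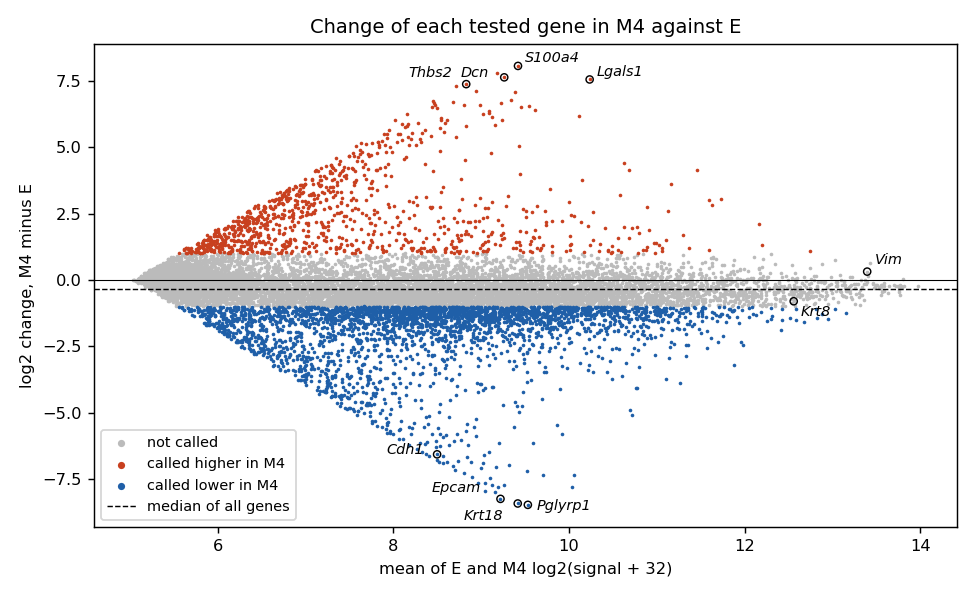
Each point is 1 of 14840 genes, with its mean log2(signal + 32) over the E and M4 arrays on the horizontal axis and its M4 minus E change on the vertical axis. Red points rose, blue points fell and grey points were not called; the dashed line is the median gene at -0.35, and the called genes at the ends lie near the sloping edges, where the signal of 1 line is at the background.

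Genes of epithelial junctions were lower in M4. All 33 tested genes of the junction and adhesion list fell (33 also after quantile normalization, 32 after median centring), with a median change of -4.05 against -0.35 over all genes. A gene could enter the test through the E arrays alone, and could then only be called lower, so part of this count was set by the filter. Epcam, which holds epithelial cells together, had signals of 10675 and 10046 on the E arrays and 2.8 and 1.7 on the M4 arrays, a change of -8.24 (SE 0.17, limma adjusted p = 3.76e-38). The size rests on the probe set: the other Epcam probe set, which has the higher mean log2 value and had been chosen first, changed by -2.39 (also called), and the mean of both by -5.32. Cldn3, a tight junction claudin, went from 7129 and 7020 to 3.1 on both M4 arrays (-7.66, SE 0.19). Spint2, an inhibitor of cell-surface serine proteases, went from 7802 and 7122 to 6.5 and 4.2 (-7.65, SE 0.18). Bright on both E arrays, these genes were at the background on both M4 arrays. Cldn7, another claudin, went from 6257 and 6158 to 2.5 and 6.8 (-7.41, SE 0.17). Cldn3, Spint2 and Cldn7 were not kept when a signal above the filter was asked for on 4 arrays, so they could hardly be called otherwise. Cdh1, which encodes E-cadherin, went from 3788 and 3215 to 0.6 and 10.3 (-6.57, SE 0.18, limma adjusted p = 9.28e-34). The smallest changes of the list were those of Tjp1, a scaffold of tight junctions, at -1.67, and Evpl, a cell envelope protein, at -1.44. Tjp1 kept signals of 774 and 800.4 on the M4 arrays.

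Because the junction genes fell together, their promoter windows were searched for the E-box CAGGTG or CACCTG on both strands. The windows are those of RefSeq on GRCm38.p6, running from 250 bases before to 50 bases after a transcript start. Of 26 windows of 19 junction genes, 18 (69.2%) held an E-box, against 6640 of 32851 windows of all genes (20.2%) and 2931 of 15126 windows of the tested genes (19.4%). Of 25 windows of 20 genes of the fibrillar matrix list, 3 held one. Windows of 1 gene can overlap, so they are not independent, and a match of letters is a description and not a binding site. Cdh1 had no window and was not searched. The junction list was chosen with earlier results of these data known, and whether any factor acts through these E-boxes was not tested. The windows of the 4 junction genes that changed most are shown to make the motif visible, each in its gene's direction of transcription, with the E-boxes in capitals. They lie at chr17:87635729-87636028 on the plus strand for Epcam, chr5:134985964-134986263 on the plus strand for Cldn3, chr7:29281928-29282227 on the minus strand for Spint2 and chr11:69965171-69965470 on the plus strand for Cldn7, and the Spint2 and Cldn7 windows belong to alternative starts.
Epcam: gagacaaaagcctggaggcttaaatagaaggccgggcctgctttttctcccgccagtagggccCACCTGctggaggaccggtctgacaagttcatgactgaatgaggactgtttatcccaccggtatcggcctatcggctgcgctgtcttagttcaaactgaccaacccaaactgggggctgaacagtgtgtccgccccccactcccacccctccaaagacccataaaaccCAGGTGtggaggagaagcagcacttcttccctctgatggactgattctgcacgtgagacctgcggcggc
Cldn3: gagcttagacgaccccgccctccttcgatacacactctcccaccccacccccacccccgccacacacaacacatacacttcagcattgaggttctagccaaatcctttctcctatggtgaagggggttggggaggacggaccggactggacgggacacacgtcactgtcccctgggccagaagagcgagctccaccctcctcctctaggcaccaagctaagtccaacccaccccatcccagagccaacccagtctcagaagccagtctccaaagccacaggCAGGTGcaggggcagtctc
Spint2: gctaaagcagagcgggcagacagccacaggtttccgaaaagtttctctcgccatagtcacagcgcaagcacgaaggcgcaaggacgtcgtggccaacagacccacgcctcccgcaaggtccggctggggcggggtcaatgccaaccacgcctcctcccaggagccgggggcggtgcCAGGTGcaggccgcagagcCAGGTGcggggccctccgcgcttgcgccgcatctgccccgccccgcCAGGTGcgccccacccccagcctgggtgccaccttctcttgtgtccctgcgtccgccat
Cldn7: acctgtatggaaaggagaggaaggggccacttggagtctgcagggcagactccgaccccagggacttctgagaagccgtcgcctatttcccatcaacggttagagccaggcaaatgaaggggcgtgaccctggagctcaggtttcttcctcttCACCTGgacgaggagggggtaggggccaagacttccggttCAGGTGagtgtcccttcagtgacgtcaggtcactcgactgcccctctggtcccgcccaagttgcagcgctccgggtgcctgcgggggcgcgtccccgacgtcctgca
Counted from the transcript start, the E-boxes began 187 and 19 bases before it in Epcam, 31 bases after it in Cldn3, 74, 55 and 9 bases before it in Spint2, and 97 and 57 bases before it in Cldn7. Spint2 held the most of the 4, with 3.

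The keratins and luminal genes fell with one exception among the main markers. Of 28 tested genes of that list, 22 fell and 1 rose (19 and 1 after quantile normalization), with a median of -3.11. Krt18, the partner of keratin 8 in simple epithelium, went from 12784 and 12439 to 3.2 and 6.8 (-8.42, SE 0.17, limma adjusted p = 8.16e-39). Krt8 itself had 8477 and 7441 on the E arrays and 4521 and 4554 on the M4 arrays. Its change of -0.80 (SE 0.13) stayed under the 2-fold minimum and was -0.27 at its smallest among the alternatives, so M4 kept a bright Krt8 signal beside a Krt18 signal at the background. Krt7 went from 7518 and 6944 to 17.1 and 3.4 (-7.44, SE 0.21). Csn3, the milk protein kappa-casein, went from 15600 and 15564 to 34.6 and 41.9 (-7.80, SE 0.16). Wfdc18, a small secreted protein of the mammary gland, went from 13659 and 13596 to 51.4 and 50.7 (-7.36, SE 0.17). Esr1, the oestrogen receptor, was the only member to rise, from 6.4 and 1.9 to 54.1 and 51.2 (1.23, SE 0.17), a dim signal. Its call was lost at a pseudocount of 64, with values below 64 set to 64 and when its probe sets were averaged. Over the 13 luminal markers with a probe set, of which 12 were tested, the summed signal was 83289 to 86863 on the E arrays and 4764 to 4789 on the M4 arrays, and only Krt8 exceeded 100 on M4.

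Several of the genes that fell most were neither junction genes nor keratins. Pglyrp1, a secreted peptidoglycan recognition protein, went from 13746 and 14067 to 2.9 and 12.3 (-8.47, SE 0.18), the largest fall of all named genes. Atp1b1, a sodium pump subunit, went from 9361 and 8847 to 2.8 and 4.9 (-7.99, SE 0.17). Cnmd, a secreted glycoprotein known from cartilage, went from 8476 and 8176 to 1.1 and 2.0 (-7.96, SE 0.17). On each of these the E arrays were bright and the M4 arrays at the background. Cd177, a surface protein known from neutrophils, changed by -7.80 (SE 0.18), and St8sia6, a sialyltransferase, by -7.73 (SE 0.18).

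**Figure D2:**
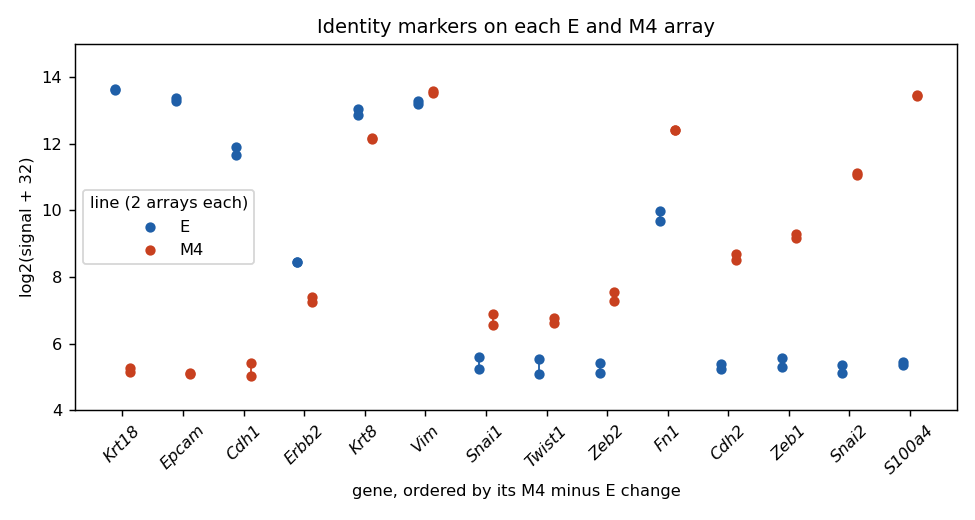
Log2(signal + 32) of 14 identity markers on both arrays of E (blue) and of M4 (red), with the 2 arrays of a line joined by a bar and genes ordered by their change. Krt18, Epcam and Cdh1 dropped to the background in M4, Krt8 and Vim were bright in both lines, and S100a4, Snai2 and Zeb1 rose from the background.

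Among 28 tested genes for mesenchymal adhesion and cytoskeleton, 12 rose and 2 fell (15 and 1 after quantile normalization), with a median of 0.92. S100a4, a calcium-binding protein of motile and mesenchymal cells, went from 11.2 and 8.7 to 11061 and 11246 (8.06, SE 0.11, limma adjusted p = 1.57e-46), the largest rise of all genes named. Lgals1, a secreted galectin, went from 54.8 and 57.4 to 16287 and 16657 (7.55, SE 0.09). Cav1, the main protein of caveolae, went from 31.1 and 25.5 to 4643 and 5157 (6.35, SE 0.12). Cd34, a sialomucin of stromal and blood progenitor cells, went from 1.2 and 0.5 to 2366 and 2528 (6.24, SE 0.14). Vim, which encodes vimentin, was already bright in E, at 9980 and 9308 against 11822 and 12157 in M4, and its change of 0.31 (SE 0.08) was under the 2-fold minimum. Cdh2, which encodes N-cadherin, went from 9.5 and 5.8 to 378 and 333 (3.29, SE 0.17). The 2 that fell were Lmod1, a smooth muscle actin nucleator (-2.13), and Cnn2, a calponin (-1.17), whose call was lost under each other scaling.

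Of 16 tested EMT transcription factors, 9 rose and 4 fell (9 and 1 after quantile normalization), with a median of 1.35. Twist2 rose most, from 28.1 and 1.3 to 3040 and 3080 (6.11, SE 0.17, limma adjusted p = 8.07e-33). Snai2, which encodes Slug, went from 2.8 and 8.8 to 2117 and 2199 (5.86, SE 0.16). The paired-related homeobox genes rose with them. Prrx2 went from 4.7 and 2.0 to 1472 and 1653 (5.49, SE 0.16), and Prrx1 from 9.9 and 13.8 to 1620 and 1728 (5.28, SE 0.16). Zeb1 went from 7.1 and 15 to 589 and 546 (3.80, SE 0.16, but 1.68 when its probe sets were averaged), and Zeb2 from 10.5 and 2.6 to 122 and 153 (2.14, SE 0.18). Snai1 and Twist1 stayed dim. Snai1 went from 5.6 and 15.9 to 61.3 and 87.1 (1.31, SE 0.19) and Twist1 from 14.1 and 1.7 to 65.2 and 76.2 (1.38, SE 0.20). Both calls were lost at a pseudocount of 64 and with values below 64 set to 64. The 4 that fell were Snai3, Tcf3, Sox4 and Foxc1, by -1.33, -1.30, -1.27 and -1.03, and each call was lost under at least 1 other scaling.

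Collagens and other fibrillar matrix genes rose in M4. Of 34 tested genes, 25 rose and 4 fell (26 and 2 after quantile normalization), with a median of 3.08. Dcn, the collagen-binding proteoglycan decorin, went from 21.1 and 3.9 to 8308 and 8929 (7.63, SE 0.13, limma adjusted p = 1.68e-41, but 4.14 when its probe sets were averaged). Thbs2, a matricellular thrombospondin, went from 2.6 and 4.1 to 5676 and 5984 (7.37, SE 0.17). Col3a1, a fibrillar collagen chain, went from 10.8 and 9.2 to 5645 and 5880 (7.11, SE 0.16). None of these had a signal above the background in E. Col1a2 went from 40.2 and 21.9 to 6866 and 6637 (6.76, SE 0.16), and Col5a2 from 12.6 and 3.9 to 4031 and 4276 (6.71, SE 0.16). Fn1, which encodes fibronectin, was present in E and rose from 972 and 790.3 to 5419 and 5476 (2.59, SE 0.12). The 4 that fell were Mgp, a matrix inhibitor of calcification, from 5403 and 5327 to 705 and 745 (-2.84), and Loxl3, Plod2 and Tnc, by -1.61, -1.54 and -1.44. The calls of Plod2 and Tnc were lost after quantile normalization.

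**Figure D3:**
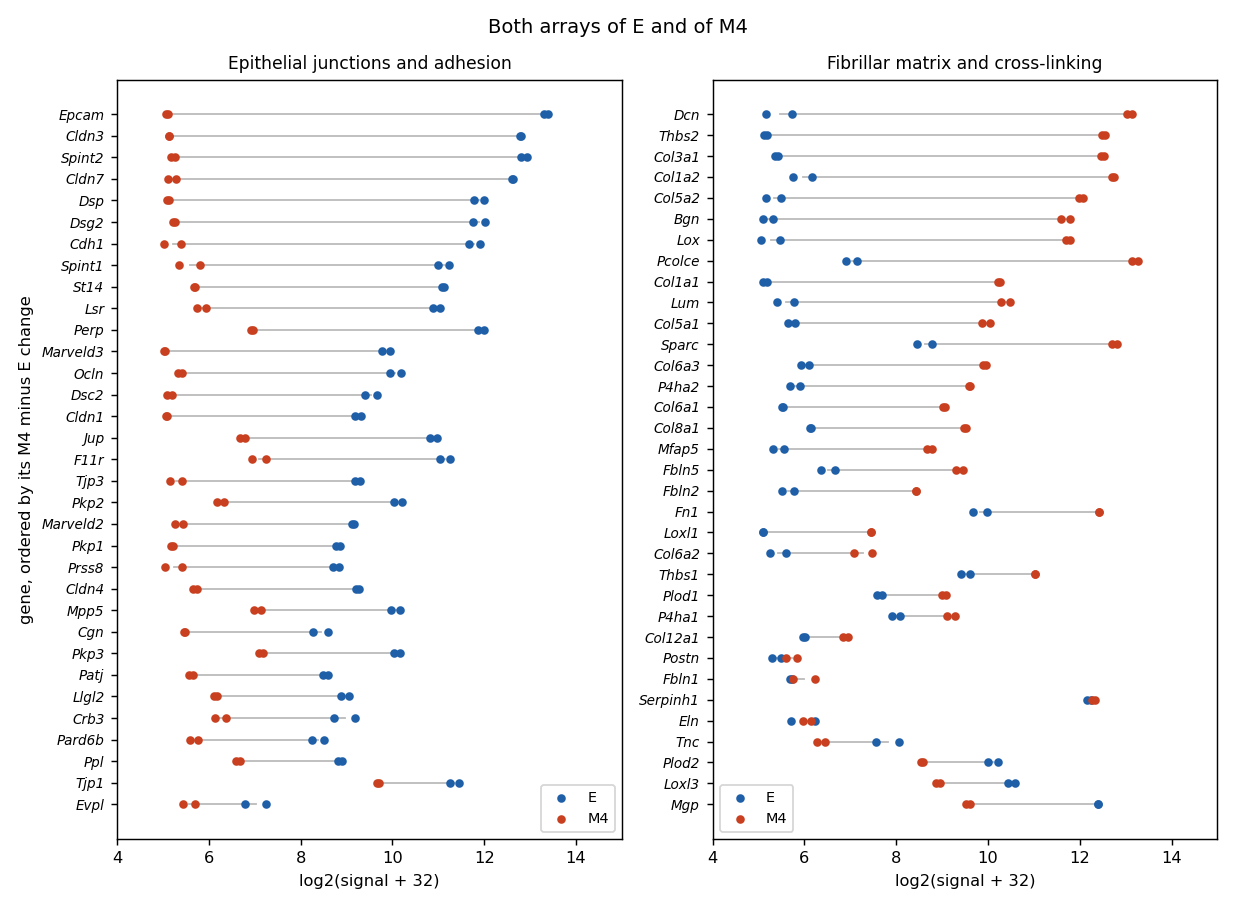
Log2(signal + 32) of every tested gene of the junction list (left, 33 genes) and the fibrillar matrix list (right, 34 genes), with both arrays of E in blue and both arrays of M4 in red and a grey line joining the means. In every junction gene both M4 arrays lie left of both E arrays, whereas most matrix genes run the other way and Mgp, Loxl3, Plod2 and Tnc at the bottom run as the junction genes do.

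The basement membrane, the sheet that epithelium lays down, went opposite to the fibrillar matrix. Of 16 tested genes, 9 fell and 0 rose (5 fell and 2 rose after quantile normalization), with a median of -1.20. Col4a1, the main chain of type IV collagen, went from 3396 and 3106 to 26.2 and 36 (-5.70, SE 0.17). Its neighbour and partner chain Col4a2 went from 2111 and 1914 to 41.7 and 26.4 (-4.96, SE 0.19). Lamb3, a laminin chain of epithelial hemidesmosomes, changed by -4.32 (SE 0.18), and Agrn, the proteoglycan agrin, by -3.72 (SE 0.19). Of the proteases and inhibitors that act on matrix, 16 of 27 tested rose and 2 fell (17 and 1 after quantile normalization). Htra1, a secreted serine protease, went from 30.9 and 28.5 to 4642 and 4915 (6.28, SE 0.11). Timp1, an inhibitor of metalloproteases, went from 31.2 and 26.3 to 3243 and 3537 (5.82, SE 0.14). Proteases and inhibitors were both among them. The collagenase Mmp13 changed by 5.07 (SE 0.16) and the stromelysin Mmp3 by 5.04 (SE 0.15). The 2 that fell were Serpinb5, known as maspin (-3.34), and Plaur, the urokinase receptor (-1.23), whose call was lost under each other scaling.

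Integrins, the receptors for matrix, changed in both directions. Of 18 tested subunits, 8 fell and 4 rose (6 and 4 after quantile normalization), beside 20.1% and 6.65% of all genes as deposited. Itga8 went from 5782 and 5065 to 398 and 424 (-3.62, SE 0.15). Itgb4, the hemidesmosome subunit, went from 906 and 1058 to 47.2 and 65.6 (-3.52, SE 0.16). Itgb7 rose from 5.8 and 6.8 to 1411 and 1372 (5.22, SE 0.16). Itga5, the alpha chain of the fibronectin receptor, rose from 9.7 and 9.9 to 298 and 306 (3.00, SE 0.17), and the others that rose were Itgb2 (1.61) and Itga7 (1.28). The last 2 calls were lost with values below 64 set to 64.

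**Figure D4:**
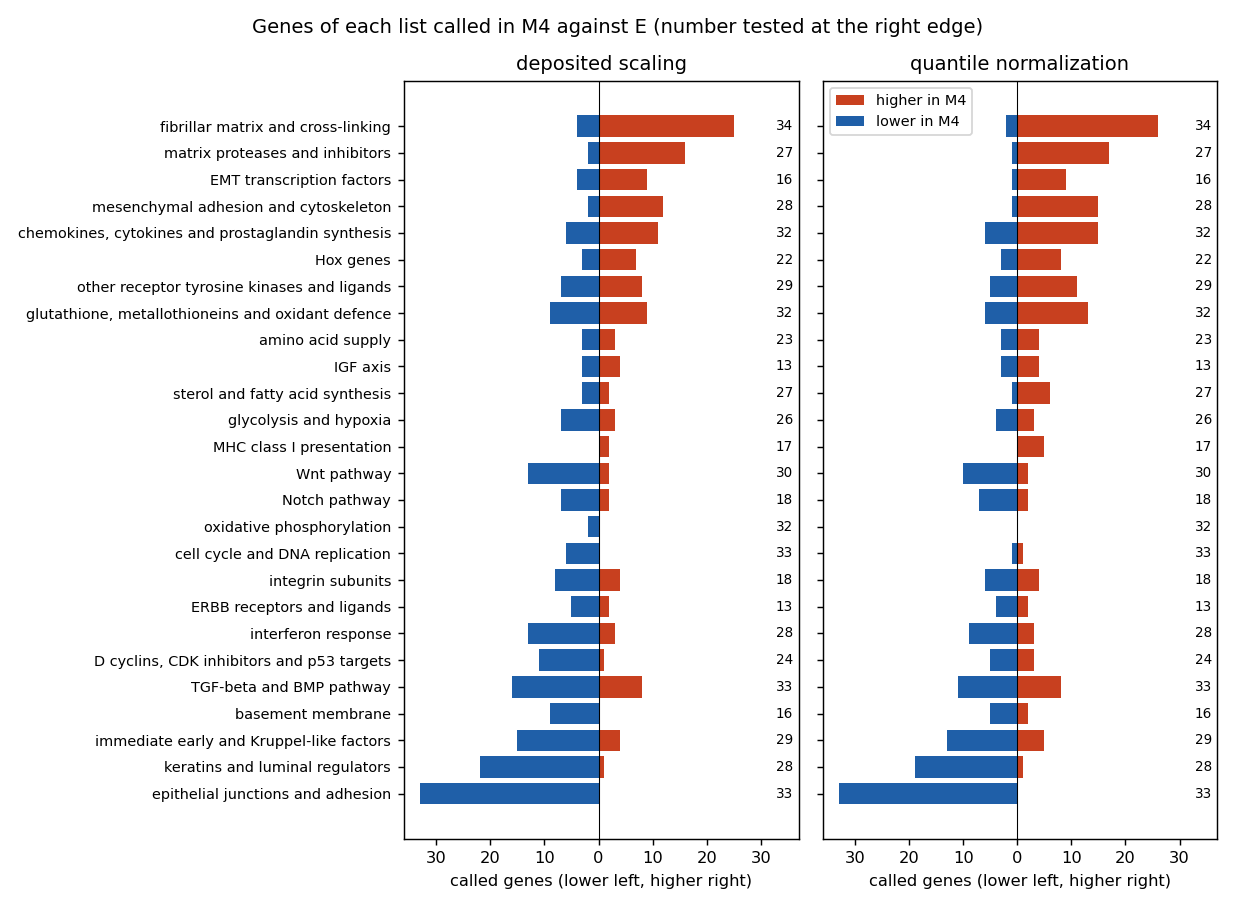
For each of 26 gene lists, ordered by median change, bars to the right count members called higher and bars to the left members called lower in M4 against E, as deposited (left panel) and after quantile normalization (right panel); the number at the edge is the number tested. The matrix, protease and EMT factor lists lean to the right and the junction and keratin lists to the left in both panels, while fallen members of the cell cycle list shrink from 6 to 1.

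Genes of the ERBB system, through which neu signals, changed in both directions. Among the 13 tested, 5 fell and 2 rose, and 6 had no call (quantile normalization gave 4, 2 and 7). Over all genes 20.1% fell and 6.65% rose as deposited. Erbb3, the partner of neu in signalling, went from 3622 and 3402 to 93.9 and 103 (-4.76, SE 0.17, limma adjusted p = 4.78e-29). Among the ligands of Egfr, Tgfa went from 1168 and 994 to 11.6 and 11.8 (-4.67, SE 0.19), and Hbegf from 2442 and 2194 to 240.4 and 254 (-3.07, SE 0.15). Grb7, an adaptor that lies beside Erbb2 in the genome, changed by -2.88 (SE 0.20). Erbb2 had 315 and 321 on the E arrays and 137 and 119 on the M4 arrays (-1.13, SE 0.17). That call was lost under each of the other scalings and at a pseudocount of 64, and whether the probe set reads the transgene's transcript was not tested. The 2 ligands that rose were Ereg (1.87) and Nrg1 (1.66).

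Other receptor tyrosine kinases and their ligands changed in both directions, with 8 of 29 higher and 7 lower (11 and 5 after quantile normalization). Receptors of fibroblasts rose: Pdgfra went from 36.3 and 30.7 to 2870 and 2482 (5.37, SE 0.16), and Pdgfrb from 4.4 and 0.2 to 637 and 629 (4.28, SE 0.18). Fgf7, a growth factor that stroma makes for epithelium, went from 15.5 and 11.5 to 4251 and 4447 (6.59, SE 0.14). Kit, a receptor of luminal progenitor cells, fell from 1532 and 1221 to 1.6 and 4.3 (-5.32, SE 0.19). In the IGF axis, 4 of 13 rose and 3 fell under both scalings. Igfbp4, a binding protein for insulin-like growth factors, went from 13.7 and 1.3 to 8544 and 8629 (7.79, SE 0.12). Igfbp6 went from a mean of 27.2 to 5964 and 6058 (6.68, SE 0.12). Igfbp7 changed by 4.24 (SE 0.17) and the growth factor Igf1 by 2.35 (SE 0.20), from 29.5 and 10.8 to 197 and 265. The 3 that fell were the receptor Igf2r (-2.26), Igfbp5 (from 138 and 96.6 to 6.5 and 3.4, a call lost with values below 64 set to 64, and at -0.19 on the probe set with the highest mean log2 value) and the adaptor Irs1 (-1.78).

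Notch, Wnt and TGF-beta genes fell more often than they rose, as did all genes as deposited (20.1% fell and 6.65% rose). After quantile normalization 1410 of all 14840 genes were lower and 1541 higher. Of 18 tested Notch genes, 7 fell and 2 rose, the same counts after quantile normalization. Hey1, a target of Notch, went from 2845 and 2451 to 5.9 and 5.2 (-6.15, SE 0.18). The targets Nrarp and Hes1 changed by -4.81 (SE 0.18) and -4.60 (SE 0.19), the ligands Dll1 and Jag1 by -3.78 and -3.07, and the receptor Notch1 by -3.69. The 2 that rose were Rbpj, the DNA-binding partner of Notch (1.58), and the coactivator Maml1 (1.17, lost when probe sets were averaged). Wnt genes fell in 13 of 30 cases and rose in 2 (quantile normalization gave 10 and 2). The ligand Wnt7b went from 1981 and 1723 to 48.4 and 78.6 (-4.32, SE 0.19). The secreted inhibitors Wif1 and Sfrp1 changed by -4.22 (SE 0.19) and -4.09 (SE 0.19), and the receptor Fzd5 by -3.99 (SE 0.17). The 2 that rose were the ligands Wnt10a (3.86) and Wnt6 (2.39). TGF-beta and BMP genes fell in 16 of 33 cases and rose in 8 (quantile normalization gave 11 and 8). Bambi, a decoy receptor, went from 825 and 807 to 0.9 and 2.9 (-4.64, SE 0.18), and Inhbb, an activin subunit, changed by -4.25 (SE 0.18). Tgfbi, a TGF-beta-induced matrix protein, rose from 8.3 and 3.1 to 1272 and 1417 (5.19, SE 0.15), and Bmp4 from 3.8 and 17.6 to 979 and 864 (4.50, SE 0.18).

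Inflammatory mediators rose more often than they fell, 11 against 6 of 32 tested (15 against 6 after quantile normalization). Ptgs2, the inducible cyclooxygenase, went from 2.8 and 0.4 to 5030 and 5447 (7.29, SE 0.12, limma adjusted p = 1.23e-41). The monocyte chemokines Ccl7 and Ccl2 rose, Ccl7 from 37.9 and 31.0 to 4496 and 4866 (6.15, SE 0.14) and Ccl2 from 316 and 304 to 7000 and 7470 (4.41, SE 0.11). Ccl20, a chemokine of epithelium, fell from 996 and 950 to 3.4 and 1.3 (-4.87, SE 0.17). Interferon response genes fell in 13 of 28 cases and rose in 3 (quantile normalization gave 9 and 3). Rtp4 went from 2823 and 2664 to 166 and 161 (-3.82, SE 0.17), and Irf9, a subunit of the interferon-activated factor, changed by -2.63 (SE 0.18). Those that rose were Ifitm1 (5.90, SE 0.17), Ifi47 (2.32, SE 0.16) and Gbp2 (1.88). In MHC class I presentation 2 of 17 genes rose and 0 fell (5 and 0 after quantile normalization): the immunoproteasome subunit Psmb8 went from 10.6 and 10.9 to 1125 and 1182 (4.79, SE 0.16), and H2-M3 from 34.3 and 42.7 to 264 and 280 (2.11, SE 0.16). As deposited 6.65% of all genes rose, which is not far from the 2 of 17 here, and 20.1% fell.

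The cell cycle and replication list of 33 had 6 fallen and 0 risen members (quantile normalization gave 1 and 1), with a median of -0.72. That is near the 20.1% of all genes that fell. Mki67, a marker of cycling cells, went from 3387 and 3045 to 960 and 950 (-1.72, SE 0.15). The other 5 that fell, Cdc25c, Kif11, Cdk2, Mcm5 and Mcm2, had changes of -1.27 to -1.02, and each of these calls was lost under the other scalings. Among D cyclins, inhibitors and p53 targets, 11 of 24 fell and 1 rose (5 and 3 after quantile normalization). The gene that rose was Ccnd2, cyclin D2, from 50.4 and 30.4 to 1366 and 1574 (4.38, SE 0.15), and the inhibitor Cdkn1b changed by -2.51 (SE 0.17). In oxidative phosphorylation 2 of 32 fell and 0 rose (quantile normalization gave 0 and 0). They were Ndufs3 (-1.15, SE 0.13) and Ndufa9 (-1.04, SE 0.12), subunits of complex I.

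The list of glycolysis and hypoxia genes had 7 of 26 lower and 3 higher (4 and 3 after quantile normalization). Over all genes 20.1% fell and 6.65% rose as deposited, so these counts are not far from the shares of all genes. Aldoc, an aldolase, went from 6619 and 6307 to 55.5 and 62.7 (-6.16, SE 0.17), and Pfkp, a phosphofructokinase, changed by -2.52 (SE 0.16). Ndrg1 and Bnip3, both induced by low oxygen, rose by 4.11 (SE 0.17) and 2.58 (SE 0.14), and Eno2 by 2.20. In sterol and fatty acid synthesis 3 of 27 fell and 2 rose (1 and 6 after quantile normalization). Srebf1, a regulator of lipid synthesis, went from 3527 and 3003 to 356 and 341 (-3.11, SE 0.16). The calls of Acaca and Fasn (-1.42 and -1.03) were lost under the other scalings, and those of Fads1 and Elovl6 (1.99 and 1.45) when the probe sets of a gene were averaged. Of 32 genes of glutathione and oxidant defence, 9 rose and 9 fell (13 and 6 after quantile normalization). Gpx2, an epithelial glutathione peroxidase, went from 7534 and 8647 to 9.3 and 3.8 (-7.72, SE 0.18). Mt2, a metallothionein, went from 59.8 and 26.5 to 6542 and 6912 (6.53, SE 0.13). Hmox1, haem oxygenase, changed by 4.77 (SE 0.13) and Sod3, the extracellular superoxide dismutase, by 4.22 (SE 0.16). In amino acid supply 3 of 23 fell and 3 rose (3 and 4 after quantile normalization). The transporter Slc7a5 went from 4718 and 4453 to 378 and 388 (-3.48, SE 0.14), and its partner chain Slc3a2 changed by -1.75 (SE 0.12).

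Immediate early and Kruppel-like factors were lower in 15 of 29 and higher in 4 (13 and 5 after quantile normalization). Fos went from 5734 and 5294 to 525 and 553 (-3.28, SE 0.16), and Dusp6, a phosphatase induced by ERK signalling, from 11441 and 11365 to 1218.9 and 1219.8 (-3.19, SE 0.13). Those that rose were Fosl1 (5.52, SE 0.16), Klf4 (5.40, SE 0.16), Dusp1 (1.65) and Klf9 (1.52). Positional identity genes changed too, with 7 of 22 Hox genes higher and 3 lower (8 and 3 after quantile normalization). The shares of all genes were 6.65% and 20.1% as deposited. Hoxa9 went from 2.8 and 2.5 to 173 and 215 (2.70, SE 0.17), and Hoxb2 and Hoxc9 changed by 2.48 and 2.44 (each SE 0.17). The 3 that fell were all of the anterior Hoxa cluster, Hoxa3 (-2.60, SE 0.19, but -1.40 on the probe set with the highest mean log2 value), Hoxa5 (-2.43) and Hoxa2 (-1.43), the last a call lost under median centring.

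Markers of other cell types were read beside these changes, since M4 was grown out of a tumour in a host and the labels do not say whether host cells remained in the culture. Of 13 tested stromal fibroblast markers, 11 rose and 0 fell, also after quantile normalization. The summed signal of all 15 markers of that list, the untested Fap and Dpt included, was 382 to 520 on the E arrays and 35291 to 36375 on the M4 arrays, against 13968 to 28371 over the arrays of M1, M2 and M3. Thy1, a surface marker of many fibroblasts, had 19.9 and 11.4 in E and 19.7 and 13.8 in M4. These markers overlap the matrix list, and what part cells of the host, as against changed tumour cells, had in them was not tested and cannot be told apart in bulk RNA, where fewer cells of a type and less RNA per cell also look alike. Of 20 leukocyte markers with a probe set, 2 exceeded 100 on M4: Cd14 had 526 and 634, down from 7965 and 7947 in E (-3.71), and Cd68 had 137 and 130, beside 58.1 and 55.8 in E. The summed signal of the leukocyte markers was 8347 to 8390 in E and 1205 to 1214 in M4. Nearly all of it in E was Cd14, so its fall does not describe the other markers. Ptprc, the pan-leukocyte marker CD45, was at the background, with 4.0 and 6.2 on the M4 arrays. Of 16 tested markers Itgb2 (1.61) and Coro1a (1.38) rose to dim signals, and the call of Coro1a was lost at a pseudocount of 64, with values below 64 set to 64 and when probe sets were averaged. Of 9 endothelial markers 0 rose and Plvap fell (-1.24, lost after quantile normalization), and of 7 skeletal muscle markers 0 were called. Lpl was the 1 of 3 adipocyte markers that rose (3.13), and of 6 pericyte and smooth muscle markers Acta2 rose (2.24) and Mcam fell (-2.33). Neither Lpl nor Mcam was kept when 4 arrays were asked for, so each could hardly be called in the other direction.

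A second question was where M4 stood apart from the other relapse lines. M4 differed from the mean of M1, M2 and M3 in 820 genes (5.53%), with 225 (1.52%) higher and 595 (4.01%) lower, at a median over all genes of -0.16. After quantile normalization 355 were higher and 312 lower. Each of the 10 genes furthest above was higher on both M4 arrays than on all 6 arrays of the other lines. Of the 10 furthest below this held in the opposite direction for 9, the exception being Vnn1. These genes were picked by their difference on the same arrays, so the separation is no separate evidence. It also held for 196 of all 225 genes called above and for 548 of all 595 called below. Over all genes both M4 arrays lay above the other 6 in 4.37% and below them in 25.6%, and the M4 arrays were the dimmest of the 10.

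Matrix genes led the upper end. Of the 34 tested fibrillar matrix genes, 12 were called above the other lines and 2 below, against 1.52% and 4.01% of all genes. Both M4 arrays exceeded all 6 others in 9 of the 12, against 196 of the 225 genes called above over all genes. Thbs2 had 5676 and 5984 in M4 against line means of 110.4, 133 and 7.3 in M1, M2 and M3, a difference of 5.92 (SE 0.14, limma adjusted p = 2.48e-34). Lum, the proteoglycan lumican, had 1217 and 1404 against 9.05, 12.2 and 14.8 (4.95). Bgn, biglycan, had 3062 and 3510 against 42.7, 94.2 and 134 (4.84). Lum was at the background in every line but M4, while Thbs2 in M1 and M2 and Bgn in M2 and M3 had dim signals above it. The collagens varied among the other lines: Col1a2 had 6866 and 6637 in M4 but a mean of 9558 in M1, beside 156 in M2 and 91.6 in M3 (3.49), and Col3a1 had 902, 1368 and 72.0 in the others (3.50). Col1a1 and Col6a3 were the other called matrix genes in which M1 overlapped or exceeded M4.

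Among the other genes furthest above, Ifitm1, an interferon-induced membrane protein, had 2929 and 2947 in M4 against 16.9, 135 and 20.3 (5.30, SE 0.14). Akr1c18, a steroid dehydrogenase, had 1999 and 2136 against 3.8, 153 and 45.6 (4.72). Dio2, which activates thyroid hormone, had 3574 and 3645 against 176, 128 and 79.3 (4.57). The E arrays were at the background for all of them. Il33, an alarmin cytokine, had 1573 and 1629 against 70.3, 64.2 and 5.8 (4.51), with 90.9 and 80.1 in E. Gask1b had 943 and 1010 in M4, 436 and 368 in E and means of 13.2 to 21.3 in the others (4.34), so that M4 was 1.22 above E. Plac8 had 7002 and 7236 against 224, 838 and 242 (4.19), and Pdpn, podoplanin, had 1806 and 1964 against 34.4, 299 and 30.2 (4.12). Rhox5, a homeobox gene of the X chromosome, ranked among the largest rises against E, from 31.2 and 19.5 to 7630 and 7893, and its means in the other lines ran from 58.3 to 3923.

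Genes furthest below the other lines included several that were bright in E. Perp, a desmosome-associated p53 target, had 89.3 and 92.3 in M4 against 1914, 1318 and 1303 (-3.63, SE 0.12, limma adjusted p = 2.38e-29) and 4024 and 3719 in E. Itgb4 had means of 370.2, 1114 and 1622 in the other lines (-3.37). Along the junction list, 4 of 33 genes were called below the other lines and 0 above, against 4.01% and 1.52% of all genes. The 4 were Perp, Pkp2, Cldn1 and Pkp1, of which the rule for named genes took Perp alone. Socs2, a suppressor of cytokine signalling, had 93.8 and 101 in M4 against 1263, 1524 and 1777 (-3.57), and Celf2, an RNA-binding protein, 39.6 and 35.9 against 1183, 821 and 511 (-3.56). Pkia, an inhibitor of protein kinase A, was at 2.8 and 11.5 against 551, 370.0 and 403 (-3.58). All 5 of these were also lower in M4 than in E.

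Wnt5a and Lmo1 were near the background in both M4 and E and brighter in the other lines. Wnt5a, a ligand of the non-canonical Wnt pathway, had 18.1 and 20.6 in M4 and 17.1 and 16.3 in E against 555, 380 and 301 (-3.06). Lmo1, a transcription cofactor, had 17.8 and 15.7 in M4 and 14.4 and 11.7 in E against means of 1000, 137 and 266 (-2.94). Csf2, which encodes GM-CSF, had 5.2 and 4.5 in M4 and 40 and 30.4 in E against 561, 132 and 294 (-3.09). For Wnt5a and Lmo1 the changes from E were 0.08 (SE 0.18) and 0.11 (SE 0.17). Vnn1, a pantetheinase, had 86.8 and 84.5 in M4, which exceeded the mean of 53.4 in M1 and was below 1780 in M2 and 8622 in M3 (-3.22), and rose from 11.4 and 4.4 in E (1.57, lost with values below 64 set to 64). Cbr2, a carbonyl reductase, had 35.0 and 35.6 against 741, 785 and 198 (-2.96), and fell from 569.5 and 569 in E (-3.16).

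**Figure D5:**
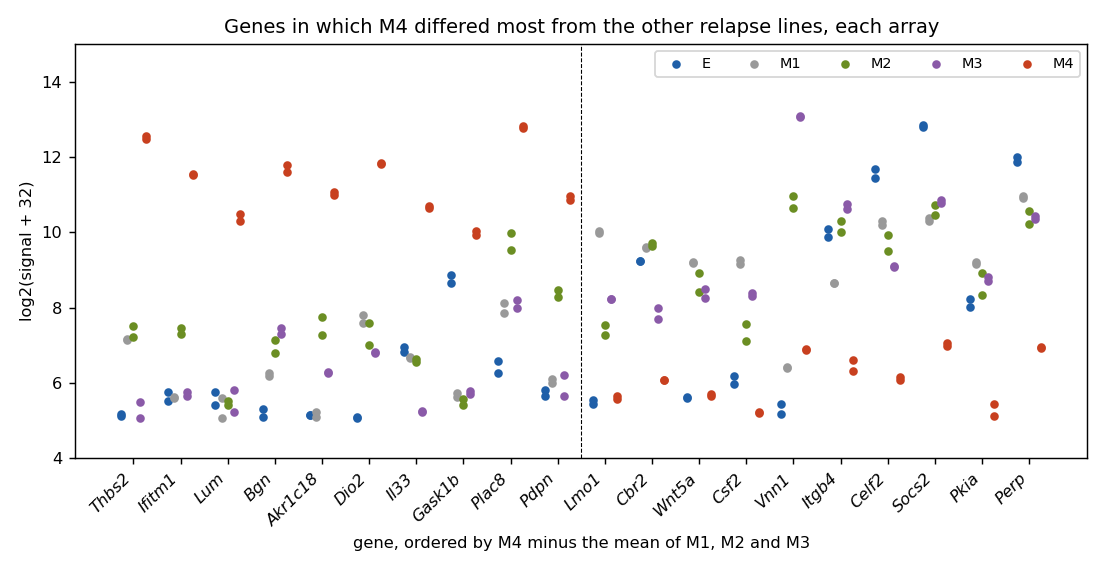
Log2(signal + 32) on every array of E, M1, M2, M3 and M4 for the 10 genes furthest above and the 10 furthest below the mean of the other relapse lines, split by the dashed line. To the left of it both red M4 points lie above the points of M1, M2 and M3 in all 10 genes, and to its right they lie below them in all but Vnn1.

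By list, amino acid supply had 8 of 23 genes below the other lines and 1 above, at a list median of -0.84 against -0.16 over all genes. Of all genes 4.01% were called below and 1.52% above. Slc7a5 had means of 2741, 430.3 and 1175 in M1, M2 and M3 (-1.47), and that call was lost without M1. Slc3a2 had 4310, 2306 and 4825 (-1.31), lost after quantile normalization. Slc38a4 was the 1 above, at 186 and 202 against 2.25, 8.95 and 7.2 (2.58). Only its M4 arrays were above the background, and it was not kept when 4 arrays were asked for, so it could hardly be called otherwise. The EMT factors had 2 of 16 above, Twist2 (1.34) and Snai2 (1.25, lost without M3), and 0 below. Their list median was -0.15, close to that of all genes. Cell cycle genes had 5 of 33 above and 0 below, at a list median of 0.53, but M3 was low in several of them. Mki67 had means of 1704, 1383 and 102 in M1, M2 and M3 against 955 in M4, and Mcm5 had 4482, 4165 and 445 against 2416. Cdc25c, Kif11 and Cdk2 likewise lay below M1 and M2 and above M3. Mcm2 lay below M1 and above M3 but was level with M2, at means of 817.5 in M4 and 823.5 in M2. None of these named genes was called above the other lines, and whether the called ones rest on M3 was not tested. Krt8 was above the mean of the other lines by 1.54, but without M1, where its mean was 57.1, M4 was below the remaining lines by a difference of -0.54.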

How the data were processed

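The authors deposited probe set intensities on a linear scale for 10 arrays with 45101 probe sets each; the submitters' processing notes name GCOS 1.3, and the scaling and any background correction are not given there. Detection calls were not used here. From these values 64 control probe sets were left out, 32 was added and log2 taken. Probe sets above the 40th percentile of their array on at least 2 arrays were kept (32978). The 2 E arrays alone could thus admit a gene, which could then only be called lower in M4. The 2 M4 arrays alone could likewise admit a gene, which could then only be called higher. Of the genes named, Cldn3, Spint2, Cldn7, Pglyrp1, Cnmd, Cd177, Gpx2, Krt7, Grb7, Wif1, Mcam, Hoxa2, Lpl, Slc38a4 and Thy1 were not kept when 4 arrays were asked for. Each of 14840 genes was represented by the kept probe set of a single symbol with the highest mean signal, a choice made after the data had been seen in place of the highest mean log2 value. In limma 3.58.1 (R 4.3.3) 1 mean per line was fitted over all 10 arrays, with eBayes and a trend, leaving 5 residual degrees of freedom. The contrasts were M4 minus E and M4 minus the mean of M1, M2 and M3, which share the M4 arrays. The script was tested on simulated data.

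Named genes were 14 fixed markers, the 12 highest and 12 lowest called changes against E, up to 4 called members with the largest change from each of 26 lists, and the 10 highest and 10 lowest called differences from the other lines, leaving out clone names and probe sets of several symbols. Other genes are named as the whole of a small count, and were chosen after their values were seen. Of 802 listed symbols 755 had a probe set. The members and lists were chosen with earlier results of these data known. Alternatives were 3 scalings, 2 pseudocounts, a floor, 2 filters, other uses of probe sets, no trend, no fold minimum, a replicate block, fewer arrays or lines, and each array left out.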

Additional observations from a re-analysis of the deposited data

Results flagged for a closer look

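Of the genes named, 45 differed between relapse lines by the test of the difference itself, with M4 past the threshold against the mean of M1, M2 and M3 (limma, Benjamini-Hochberg adjusted over all genes tested and at least a 2-fold difference). Values are differences of log2(signal + 32), M4 minus that mean. The first 10 above were Thbs2 (5.92), Ifitm1 (5.30), Lum (4.95), Bgn (4.84), Akr1c18 (4.72), Dio2 (4.57), Il33 (4.51), Gask1b (4.34), Plac8 (4.19) and Pdpn (4.12). Smaller differences above the mean were those of Col3a1 (3.50), Col1a2 (3.49), Rhox5 (3.07), Bmp4 (2.75), Slc38a4 (2.58), Igf1 (2.24), Mmp3 (1.77), Krt8 (1.54), Col5a2 (1.40), Twist2 (1.34), Pdgfra (1.33), Igfbp7 (1.298), Snai2 (1.25), Fos (1.23) and Wfdc18 (1.11). Furthest below were Perp (-3.63), Pkia (-3.58), Socs2 (-3.57), Celf2 (-3.56), Itgb4 (-3.37), Vnn1 (-3.22), Csf2 (-3.09), Wnt5a (-3.06), Cbr2 (-2.96) and Lmo1 (-2.94). Smaller differences below were those of Ndrg1 (-1.70), Cdh2 (-1.66), Slc7a5 (-1.47), Ccl20 (-1.46), Krt18 (-1.45), Slc3a2 (-1.31), Lamb3 (-1.29), Hbegf (-1.21), Rtp4 (-1.11) and Ccnd2 (-1.04). Leaving out 1 whole line ended the call of Krt18, Slc7a5 and Ccnd2 (without M1), of Lamb3 (without M2), and of Snai2, Mmp3, Igfbp7, Fos and Ccl20 (without M3). Without M1 the difference of Krt8 turned to -0.54. Another scaling ended the call of Ccnd2, Hbegf, Rtp4 and Slc3a2, and a pseudocount of 64 that of Lamb3 and Wfdc18. No group had more than 2 arrays, so single arrays could not be tested for standing apart.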

How the results depend on the processing

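The scaling set the balance of directions more than the number of calls. For M4 minus E, quantile normalization gave 1541 genes higher and 1410 lower, median centring 1548 and 1538, and scaling to the hybridization controls 1435 and 1557, against 987 and 2983 as deposited. Against the mean of M1, M2 and M3 these gave 355 and 312, 306 and 331, and 352 and 307, against 225 and 595. With no fold minimum, 8912 genes were called against E (1860 higher and 7052 lower) and 5770 against the other lines (1034 and 4736), so the 2-fold minimum bounded the counts rather than the p-value. Pseudocounts of 16 and 64 gave 4556 and 3291 calls against E. Leaving out 1 array gave 3667 to 4407 calls against E (939 to 1045 higher and 2622 to 3468 lower), the fewest without E replicate 1, the brightest array. Against the other lines it gave 739 to 929 calls. No paired reading was warranted: deviations of same-numbered arrays of any 2 lines correlated at -0.06 to 0.05, and the fit with the replicate number as a block gave 3970 and 820 calls, as without it. Each gene's probe set was first chosen by its mean log2 value; the change to the mean signal was made after the data had been seen, so that the brighter probe set of Epcam was used, as in earlier results. The first choice gave 3941 and 814 calls. Of the genes named it moved Epcam from -8.24 to -2.39 and Hoxa3 from -2.60 to -1.40, both still called, and ended the calls of Igfbp5 (-0.19) and Kif11 (-0.87) against E.

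Over 223 gene results and 4314 alternatives, 120 calls were lost, 4 gained and 1 reversed, that of Krt8 against the other lines without M1 (-0.54). The pseudocount moved sizes: Epcam changed by -9.15 at 16 and by -7.30 at 64, and S100a4 by 8.75 and 7.25. Of 69 named genes with several probe sets, 20 had some called and some not, and 0 had opposite calls. With 2 arrays per line, the number of arrays limits the precision, and dim signals have no measured level. Averaging the probe sets of a gene reduced many changes against E by over 1.5 times with the call kept: Epcam to -5.32, Dcn to 4.14, Zeb1 to 1.68, Zeb2 to 1.35, Itga5 to 1.44, Erbb3 to -2.83, Tgfa to -1.996, Fzd5 to -2.46, Jag1 to -1.79, Psmb8 to 2.92, Rtp4 to -2.46, Ccnd2 to 2.71, Cdkn1b to -1.62, Igfbp7 to 2.18, Hoxa3 to -1.09, Pfkp to -1.52, Igfbp5 to -1.10 and Vnn1 to 1.03. Against the other lines it moved Col1a2 to 2.25, Socs2 to -1.95, Celf2 to -2.05 and Wnt5a to -1.90, and ended the calls of Rtp4 (-0.52) and Igfbp7 (0.68).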
